A study of Homo sapiens with 6 samples.

Results

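The AP-1 and immediate-early transcription factors were followed in LX2, an established human cell line. It derives from hepatic stellate cells, which become collagen-secreting myofibroblasts when the liver scars. Of 10 genes named for the set (FOS, FOSL1, FOSL2, JUN, JUNB, JUND, ATF3, EGR1, MYC and BHLHE40), 9 had a row in the deposited table of 12654 genes, and FOS was not analysed here. Cells carried a short hairpin RNA from the pLKO.1 lentiviral vector: shMETTL3-2 or shMETTL3-1, each directed against METTL3, or shLuc, directed against firefly luciferase. All 3 groups therefore shared lentiviral infection with polybrene and puromycin selection, and each had 2 RNA-seq libraries. Each knockdown group is a selected population carrying 1 hairpin, and no time between infection and RNA extraction is given in the sources used here. METTL3 is the enzyme that places N6-methyladenosine (m6A) on messenger RNA, and by the series title the study asked how its loss bears on stellate cell activation.

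AP-1 is a dimer of basic leucine zipper proteins. Jun proteins pair with each other or with Fos proteins and bind short palindromic DNA sites, whereas Fos proteins need a partner. Immediate-early genes are those that growth factors and stress switch on without new protein synthesis, mostly through MAP kinases, serum response factor and factors that bind cyclic AMP response elements. In stellate cells AP-1 activity is known to accompany culture activation and to act on metalloproteinase and cytokine genes.

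The deposited values are treated as scores and not as read counts, since all 6 columns had the same median of 552 and the same maximum of 72566, and 87.3% of sorted ranks held one value in every library. Depth per library is unknown, and a change common to all genes would not be visible. Scores were compared within a gene and not between genes, because no length scaling is given. METTL3 scored 148 and 132 with shMETTL3-2, 274 and 256 with shMETTL3-1, and 536 and 552 with shLuc, so both knockdown groups were below the control and the groups did not overlap. Its log2 change was -1.95 with shMETTL3-2 (SE 0.10) and -1.04 with shMETTL3-1 (SE 0.10). The transcript listed for METTL3 is 1462 bases long and is annotated as a nonsense-mediated decay transcript. Whether METTL3 was counted over the gene or over this transcript is not given in the sources used here. Of 16 stellate and myofibroblast markers 12 had a row, with summed scores of 121143 and 126119 with shMETTL3-2, 154572 and 155014 with shMETTL3-1, and 149590 and 142656 with shLuc. These markers moved both ways. COL1A1 stood at 44454 in both shMETTL3-2 libraries and at the maximum in both shMETTL3-1 and both shLuc libraries. The stellate markers LRAT, DES and GFAP were not analysed here. Summed scores of the 3 of 6 epithelial markers with a row were 9305 and 9094 with shMETTL3-2, 15622 and 14911 with shMETTL3-1, and 9480 and 9568 with shLuc, nearly all from KRT8 and KRT18. The 3 of 6 macrophage and leukocyte markers with a row summed to 1446 and 1451 with shMETTL3-2, 1514 and 1167 with shMETTL3-1, and 867 and 841 with shLuc. CD68 made up most of this in the knockdown libraries, and PTPRC was listed at 0 in shMETTL3-1 replicate 2. The 2 of 8 hepatocyte markers with a row summed to between 218 and 342 in the 6 libraries, and the 3 of 6 endothelial ones to 741 and 739 with shMETTL3-2, 216 and 211 with shMETTL3-1, and 368 and 346 with shLuc. Of the endothelial genes, TEK stood at 688 and 684 with shMETTL3-2, 159 and 122 with shMETTL3-1, and 100 and 110 with shLuc, whereas CDH5 stood at 4 and 10 with shMETTL3-2, 26 and 49 with shMETTL3-1, and 180 and 164 with shLuc. VWF scored 49 and 45 with shMETTL3-2, 31 and 40 with shMETTL3-1, and 88 and 72 with shLuc. SPARC, a matrix protein, scored 44404 in both shMETTL3-2 libraries, 27406 in both shMETTL3-1 libraries, and 11798 and 12564 with shLuc. COL3A1, a fibrillar collagen, scored 12146 and 15434 with shMETTL3-2, 5131 and 5280 with shMETTL3-1, and 4631 and 6150 with shLuc. HGF, a growth factor, scored 322 and 286 with shMETTL3-2 and 206 and 268 with shMETTL3-1, and each shLuc library lists it at 0. ACTA2, the smooth muscle actin of activated stellate cells, scored 1394 and 1694 with shMETTL3-2, 917 and 1040 with shMETTL3-1, and 8266 and 9713 with shLuc. The part of these shifts in the results below was not tested.

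The promoters of 4 members are shown because these genes carried the largest rise (BHLHE40), the falls with each hairpin (EGR1 and ATF3) and a change of opposite sign with the 2 hairpins (JUN). They are the 250 bases before the RefSeq transcription start in GRCh38.p14, read 5′ to 3′ towards the start. Capitals mark matches, on either strand, to the 6 motifs searched: the AP-1 site TGANTCA, the cyclic AMP response element TGACGTCA, its variant TGACATCA known from the JUN promoter, the E-box CACGTG, the CArG box of serum response factor and the EGR site GCGGGGGCG.
BHLHE40, chr3:4979187-4979436, plus strand: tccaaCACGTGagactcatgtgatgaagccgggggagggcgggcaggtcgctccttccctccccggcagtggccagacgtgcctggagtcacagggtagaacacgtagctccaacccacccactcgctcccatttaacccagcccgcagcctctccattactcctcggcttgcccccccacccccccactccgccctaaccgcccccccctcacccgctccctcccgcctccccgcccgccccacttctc
EGR1, chr5:138465229-138465478, plus strand: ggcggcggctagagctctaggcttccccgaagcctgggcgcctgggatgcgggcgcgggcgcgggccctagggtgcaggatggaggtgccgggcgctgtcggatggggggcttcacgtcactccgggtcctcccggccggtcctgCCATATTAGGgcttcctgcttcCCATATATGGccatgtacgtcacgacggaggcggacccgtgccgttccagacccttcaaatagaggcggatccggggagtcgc
ATF3, chr1:212565157-212565406, plus strand: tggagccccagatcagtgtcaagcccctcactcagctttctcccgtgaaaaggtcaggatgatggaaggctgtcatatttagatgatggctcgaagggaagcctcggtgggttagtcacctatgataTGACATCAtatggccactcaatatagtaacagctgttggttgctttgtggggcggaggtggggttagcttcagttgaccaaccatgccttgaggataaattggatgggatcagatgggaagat
JUN, chr1:58784048-58784297, minus strand: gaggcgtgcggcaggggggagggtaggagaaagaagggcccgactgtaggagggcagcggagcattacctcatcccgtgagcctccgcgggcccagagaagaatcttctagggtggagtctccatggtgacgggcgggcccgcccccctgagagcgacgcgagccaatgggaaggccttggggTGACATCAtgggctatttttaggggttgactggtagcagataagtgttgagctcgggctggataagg

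The EGR1 window held 2 CArG boxes, whose first bases lie 105 and 83 bases before the start, and 1.16% of 35116 RefSeq promoter windows of this length held at least 1. JUN and ATF3 each held TGACATCA, 67 and 123 bases before the start, as did 2.37% of all windows. BHLHE40 held CACGTG at 245 bases before the start, a sequence that is bound by MYC with MAX and by BHLHE40 itself and that 6.34% of windows held. JUND held TGACGTCA at 200 bases before the start, against 1.65% of windows. The windows of FOS, FOSL2 and JUNB, and a second window of ATF3, matched none of the 6 motifs, which says only that these letters are absent there. Only windows with a match were printed, so that other ATF3 window is not shown above. TGANTCA (6.57% of windows) and GCGGGGGCG (4.72%) matched in no window of a member. The table had no entry for FOSL1 and MYC.

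With shMETTL3-2 all 9 members passed the test, 5 higher and 4 lower than shLuc, and with shMETTL3-1 there were 7, 5 higher and 2 lower. JUN and MYC had opposite signs with the 2 hairpins. Tests were limma on log2(score + 1) with Benjamini-Hochberg adjustment over 12413 genes and a threshold of 0.05. Of all genes tested, 59.6% were called with shMETTL3-2 (30.8% higher, 28.8% lower) and 58.7% with shMETTL3-1 (30.3% higher, 28.4% lower), so being called is common in these data. The median absolute log2 change of the members was 0.63 with shMETTL3-2, against 0.36 for all genes tested, and 0.30 with shMETTL3-1, against 0.35. The members' signed median was 0.22 with shMETTL3-2 and 0.29 with shMETTL3-1, and that of all genes was 0.01 with each hairpin. Both comparisons use the same 2 shLuc libraries. In bulk RNA a lower score from fewer expressing cells cannot be told apart from less RNA per cell. Whether a group's 2 libraries came from separate cultures is not stated, so the p-values reflect library-to-library spread alone, which may be technical.

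**Figure D1:**
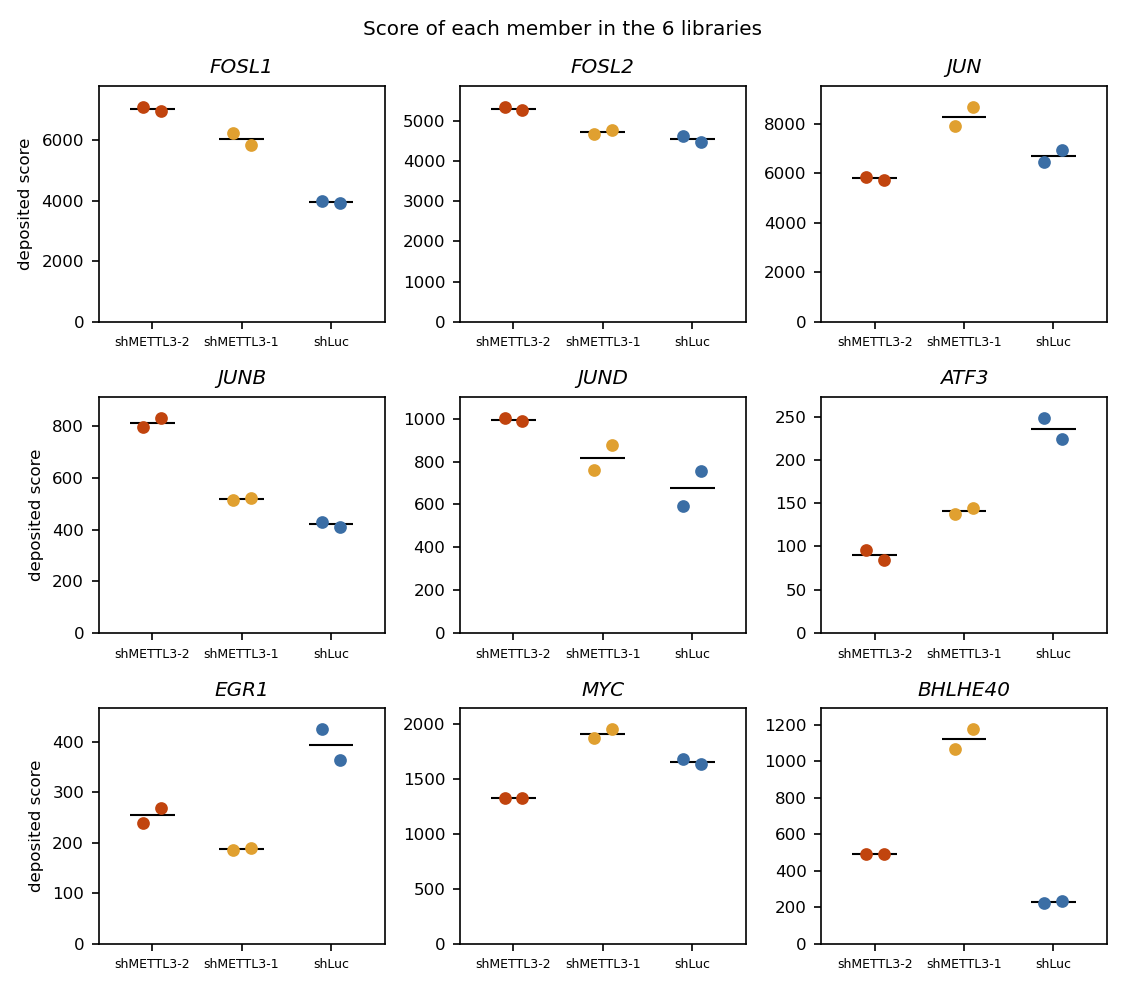
Deposited score (vertical axis, linear, from 0, a separate scale per gene) of the 9 members in each library, by group. Points are single libraries and lines the mean of 2; BHLHE40 stands between 1069 and 1174 in the shMETTL3-1 libraries, at 490 in both shMETTL3-2 libraries and at 222 and 237 in the shLuc libraries.

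Among the Fos proteins, FOSL1 rose with both hairpins. Positions printed with each member are the hg19 span listed beside its named transcript, and may not cover the whole gene. FOSL1 (Fra-1, ENSG00000175592, chromosome 11, 65659520 to 65667890 in hg19, minus strand), a Fos protein without the transactivation domain of FOS and itself an AP-1 target, scored 7084 and 6960 with shMETTL3-2, 6232 and 5848 with shMETTL3-1, and 3980 and 3916 with shLuc. Every knockdown library was above both controls, and the shMETTL3-2 libraries were the highest. The log2 change was 0.83 with shMETTL3-2 (SE 0.05, adjusted p = 1.48e-05), a 1.78-fold rise, and 0.61 with shMETTL3-1 (SE 0.05, adjusted p = 6.08e-05), a 1.53-fold rise. The log2 gap between hairpins was 0.22 (adjusted p = 0.00793) and did not pass without shMETTL3-1 replicate 2 (log2 0.17, adjusted p = 0.0564).

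FOSL2 (Fra-2, ENSG00000075426, chromosome 2, 28615315 to 28631669, plus strand), the related Fos protein that is linked to fibrosis in mouse models, moved little. It scored 5332 and 5267 with shMETTL3-2, 4668 and 4780 with shMETTL3-1, and 4624 and 4485 with shLuc. The 2 shMETTL3-2 libraries were above the other 4, while shMETTL3-1 and shLuc lay side by side. The rise with shMETTL3-2 was 1.16-fold (log2 0.22, SE 0.05, adjusted p = 0.00535). With shMETTL3-1 the log2 change was 0.05 with a 95% confidence interval of -0.06 to 0.16 (adjusted p = 0.366). A gap of 0.17 between hairpins (adjusted p = 0.0169) did not pass without shMETTL3-1 replicate 1 (0.15, adjusted p = 0.0861) or shMETTL3-2 replicate 1 (0.16, adjusted p = 0.0623). The transcript listed for FOSL2 is 393 bases long and has no coding sequence in GENCODE 44. Whether the authors counted over the gene or over this transcript is not given in the sources used here. FOSL2-AS1 overlaps FOSL2 on the other strand, and without known strandedness their reads cannot be told apart. A long noncoding RNA gene, ENSG00000270640, overlaps FOSL2 on the same strand, where strandedness would not separate the reads.

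JUNB rose with both hairpins, JUND with shMETTL3-2, and JUN lay on opposite sides of shLuc. JUN (ENSG00000177606, chromosome 1, 59246465 to 59249785, minus strand), the strongest activator of the family, scored 5848 and 5757 with shMETTL3-2, 7901 and 8670 with shMETTL3-1, and 6476 and 6960 with shLuc. The shMETTL3-1 libraries were the 2 highest and the shMETTL3-2 libraries the 2 lowest. JUN was 1.23-fold higher with shMETTL3-1 (log2 0.30, SE 0.06, adjusted p = 0.00538) and 1.16-fold lower with shMETTL3-2 (log2 -0.21, SE 0.06, adjusted p = 0.0246). The fall with shMETTL3-2 did not pass without shLuc replicate 2 (log2 -0.16, adjusted p = 0.142), shMETTL3-2 replicate 1 (-0.22, adjusted p = 0.0589) or shMETTL3-2 replicate 2 (-0.20, adjusted p = 0.0838), nor without the variance trend and robust moderation (-0.21, adjusted p = 0.0598). Over all alternatives tried its adjusted p ran between 0.013 and 0.142. Between the hairpins the log2 difference was -0.51 (SE 0.06, adjusted p = 0.000358).

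JUNB (ENSG00000171223, chromosome 19, 12902310 to 12904124, plus strand), a Jun protein that can restrain JUN at some target genes, rose with both hairpins. It scored 798 and 830 with shMETTL3-2, 513 and 522 with shMETTL3-1, and 431 and 410 with shLuc. The groups formed 3 separate steps, with shMETTL3-2 on top. The rise was 1.93-fold with shMETTL3-2 (log2 0.95, SE 0.07, adjusted p = 2.71e-05) and 1.23-fold with shMETTL3-1 (log2 0.30, SE 0.07, adjusted p = 0.0071), with a gap of 0.65 between hairpins (adjusted p = 0.000138). The annotated HOOK2 gene overlaps JUNB on the opposite strand. The HOOK2 transcript listed with the scores (chromosome 19, 12873817 to 12886337 in hg19) ends before JUNB and does not overlap it. Whether HOOK2 was counted over the gene or over this transcript is not given in the sources used here. HOOK2 scored 246 and 238 with shMETTL3-2, 176 and 183 with shMETTL3-1, and 181 and 176 with shLuc, so it was higher with shMETTL3-2 (log2 0.44, adjusted p = 0.00657) and near shLuc with shMETTL3-1 (0.01, adjusted p = 0.963). Strandedness is not given in the sources used here, and the part of HOOK2 reads in JUNB was not tested.

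JUND (ENSG00000130522, chromosome 19, 18390829 to 18391739, minus strand), the Jun protein that most cells keep at a steady level, scored 1002 and 990 with shMETTL3-2, 762 and 876 with shMETTL3-1, and 594 and 756 with shLuc. The highest shLuc library lay just below the lowest shMETTL3-1 library, and JUND had the widest replicate gap of the members, 0.35 on the log2 scale in shLuc. JUND rose 1.49-fold with shMETTL3-2 (log2 0.57, SE 0.12, adjusted p = 0.00597). With shMETTL3-1 the log2 change was 0.29 (95% confidence interval -0.00497 to 0.58, adjusted p = 0.0833). Over 13 alternatives this change ran between 0.11 and 0.46 and passed in 2. It was largest without shLuc replicate 2. Between hairpins the log2 difference was 0.29 (95% confidence interval -0.01 to 0.58, adjusted p = 0.0791). It passed in 4 of 13 alternatives, with the value unchanged. These were the fits without shLuc replicate 1 or 2, of the 2 knockdown groups alone (adjusted p = 0.0268) and with a replicate block. Over all alternatives the difference ran between 0.185 and 0.386. With the replicate number as a block both values passed (adjusted p = 0.0257 and 0.0242). The listed JUND transcript has 500 bases.

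ATF3 (ENSG00000162772, chromosome 1, 212738676 to 212792877, plus strand), a stress-induced zipper protein that pairs with Jun proteins and represses many of its targets, was lower in each knockdown. Its scores were 96 and 84 with shMETTL3-2, 138 and 144 with shMETTL3-1, and 248 and 224 with shLuc. All knockdown libraries were below both controls, with shMETTL3-2 lowest. The fall was 2.61-fold with shMETTL3-2 (log2 -1.38, SE 0.13, adjusted p = 8.91e-05) and 1.67-fold with shMETTL3-1 (log2 -0.74, SE 0.13, adjusted p = 0.00195). ATF3 was lower with shMETTL3-2 than with shMETTL3-1 (log2 -0.64, adjusted p = 0.00333). A filter at a mean score of 200 over the 6 libraries leaves ATF3 out.

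EGR1 (ENSG00000120738, chromosome 5, 137801179 to 137805004, plus strand), a zinc finger factor induced by serum through serum response factor and known to drive profibrotic genes, fell as well. It scored 240 and 268 with shMETTL3-2, 186 and 190 with shMETTL3-1, and 424 and 363 with shLuc. Unlike ATF3, EGR1 was lowest with shMETTL3-1, and no knockdown library reached a control. The fall was 1.54-fold with shMETTL3-2 (log2 -0.63, SE 0.11, adjusted p = 0.00224) and 2.08-fold with shMETTL3-1 (log2 -1.06, SE 0.11, adjusted p = 0.00018). The difference between hairpins was 0.43 (adjusted p = 0.012), which did not pass without shMETTL3-1 replicate 1 (0.41, adjusted p = 0.0644), shMETTL3-1 replicate 2 (0.45, adjusted p = 0.0532) or shMETTL3-2 replicate 2 (0.35, adjusted p = 0.0619).

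MYC (ENSG00000136997, chromosome 8, 128747680 to 128752723, plus strand), the growth-promoting factor that binds E-boxes with MAX, went the way of JUN. It scored 1323 and 1328 with shMETTL3-2, 1873 and 1948 with shMETTL3-1, and 1682 and 1630 with shLuc. The shMETTL3-2 libraries were lowest and the shMETTL3-1 libraries highest, with no overlap. MYC was 1.25-fold lower with shMETTL3-2 (log2 -0.32, SE 0.05, adjusted p = 0.00135) and 1.15-fold higher with shMETTL3-1 (log2 0.21, SE 0.05, adjusted p = 0.0109). The rise with shMETTL3-1 did not pass without shLuc replicate 2 (0.18, adjusted p = 0.0559) or shMETTL3-1 replicate 2 (0.18, adjusted p = 0.0725), and its adjusted p ran between 0.00909 and 0.0725 over the alternatives. The difference between hairpins was -0.53 (SE 0.05, adjusted p = 0.000102). CASC11 overlaps MYC on the other strand.

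BHLHE40 (DEC1, ENSG00000134107, chromosome 3, 5020801 to 5027008, plus strand), a helix-loop-helix repressor that responds to serum, hypoxia and TGF-beta and also feeds back on the circadian clock, rose with both hairpins. Its change with shMETTL3-1 was the largest of the 9 members there, while with shMETTL3-2 that of ATF3 was larger. It scored 490 in both shMETTL3-2 libraries, 1069 and 1174 with shMETTL3-1, and 222 and 237 with shLuc. Every knockdown library was above both controls, and the shMETTL3-1 libraries were more than 2-fold above those of shMETTL3-2. The rise was 2.13-fold with shMETTL3-2 (log2 1.09, SE 0.08, adjusted p = 2.89e-05) and 4.87-fold with shMETTL3-1 (log2 2.28, SE 0.08, adjusted p = 1.81e-06). With shMETTL3-1, 1.92% of all genes tested had an absolute change at least as large. Between hairpins the difference was -1.19 (adjusted p = 1.62e-05). BHLHE40-AS1 overlaps the gene on the other strand.

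**Figure D2:**
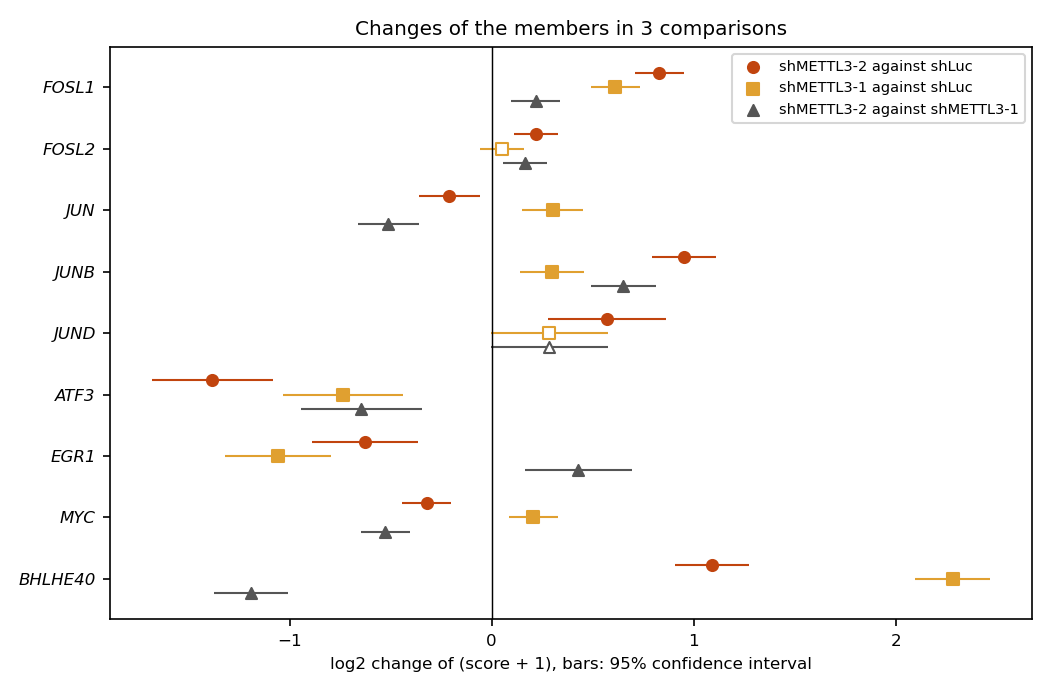
Log2 change of (score + 1) for each member, with 95% confidence intervals from limma, in shMETTL3-2 against shLuc (circles), shMETTL3-1 against shLuc (squares) and shMETTL3-2 against shMETTL3-1 (triangles). Filled symbols passed an adjusted p of 0.05; JUN and MYC lie on opposite sides of 0 with the 2 hairpins, and BHLHE40 with shMETTL3-1 is farthest from 0 at 2.28.

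Set directly against each other, the hairpins differed in 8 of 9 members, 4 higher with shMETTL3-2 (FOSL1, FOSL2, JUNB and EGR1) and 4 lower (JUN, ATF3, MYC and BHLHE40), where 63.0% of all genes tested were called (31.9% higher, 31.1% lower). The members' median absolute difference was 0.51, against 0.39 for all genes. The count of 4 higher fell to 2 without either shMETTL3-1 library: FOSL2 and EGR1 did not pass without replicate 1, and FOSL1 and EGR1 without replicate 2. The scores of all 9 members were free of overlap between the 2 libraries of each group in every comparison, as were those of 78.5% of all genes for shMETTL3-2 against shLuc, 79.4% for shMETTL3-1 against shLuc and 82.2% for shMETTL3-2 against shMETTL3-1. METTL3 itself was lower with shMETTL3-2 than with shMETTL3-1 (log2 -0.92, SE 0.10, adjusted p = 0.00016). The limit given above for the transcript listed for METTL3 holds here too. The order of the groups followed that of METTL3 for FOSL1, FOSL2, JUNB and JUND, which were highest where METTL3 was lowest, and for ATF3, which was lowest there. EGR1, BHLHE40, JUN and MYC did not follow it. With 3 groups this is a description of order, and the share of all genes that follow the same order was not counted. For JUND neither step between neighbouring groups in that order passed the threshold. For FOSL2 the step between shMETTL3-1 and shLuc did not pass, while that between the hairpins did.

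Other AP-1 zipper genes were mostly lower with shMETTL3-1. Of 12 listed, 8 had a row and were tested: with shMETTL3-2, 1 was higher, 2 lower and 5 did not pass (median log2 0.06), and with shMETTL3-1, 0 were higher, 6 lower and 2 did not pass (median -0.92). Between the hairpins 7 of 8 were higher with shMETTL3-2, where 31.9% of all genes were called higher. For this list and those below, the shares of all genes called against shLuc were 59.6% with shMETTL3-2 and 58.7% with shMETTL3-1. MAFK, a small Maf protein without a transactivation domain, scored 1618 and 1626 with shMETTL3-2, 872 and 916 with shMETTL3-1, and 2571 and 2448 with shLuc, so it fell by 0.63 with shMETTL3-2 and by 1.49 with shMETTL3-1 on the log2 scale. JDP2, a Jun partner that represses AP-1, scored 532 and 496 with shMETTL3-2, 146 and 171 with shMETTL3-1, and 424 and 496 with shLuc, a fall of 1.53 with shMETTL3-1 and a change of 0.16 with shMETTL3-2 (adjusted p = 0.267). FOSB, the serum-induced Fos protein, scored 94 in both shMETTL3-2 libraries, 42 and 39 with shMETTL3-1, and 97 and 94 with shLuc. FOSB thus fell with shMETTL3-1 (log2 -1.22, adjusted p = 0.000437), and its change with shMETTL3-2 was -0.02 (adjusted p = 0.913).

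Other immediate-early response genes went both ways. Of 25 symbols listed, older ones included, 19 had a row and were tested: 11 were higher and 4 lower with shMETTL3-2 (median 0.34), and 7 were higher and 9 lower with shMETTL3-1 (median -0.02). MCL1, an anti-apoptotic BCL2 protein, rose with both, by log2 1.83 with shMETTL3-2 and 1.13 with shMETTL3-1. BTG2, an antiproliferative gene, fell with shMETTL3-2 (log2 -1.06) and rose with shMETTL3-1 (0.81). NAB2, the corepressor that EGR1 induces and that holds EGR1 back, did the reverse. It scored 1156 and 1174 with shMETTL3-2, 357 and 362 with shMETTL3-1, and 788 and 834 with shLuc, which is a rise of 0.52 with shMETTL3-2 and a fall of 1.17 with shMETTL3-1 on the log2 scale.

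Upstream of the set, SRF, the serum response factor that binds CArG boxes such as those in the EGR1 promoter above, scored 2870 and 2796 with shMETTL3-2, 844 and 846 with shMETTL3-1, and 2796 and 2858 with shLuc. Both shMETTL3-1 libraries stood far below the other 4. SRF fell by 1.74 on the log2 scale with shMETTL3-1 (SE 0.05, adjusted p = 9.59e-07). With shMETTL3-2 its value was 0.00 (adjusted p = 0.964). EGR1 fell with both hairpins (log2 -0.63 with shMETTL3-2 and -1.06 with shMETTL3-1), and a link between SRF and EGR1 scores was not tested. Of 7 tested genes for SRF, its ternary complex factors and cofactors, 3 were higher and 3 lower with shMETTL3-2 (median 0.00), and 3 were higher and 1 lower with shMETTL3-1 (median -0.03). MKL2, an actin-sensing cofactor of SRF, fell with shMETTL3-2 (log2 -1.70) and rose with shMETTL3-1 (0.72). ELK4, a ternary complex factor, fell with shMETTL3-2 (-1.13) while -0.36 with shMETTL3-1 did not pass (adjusted p = 0.0638). That value passed without shMETTL3-2 replicate 1 (adjusted p = 0.00711) or replicate 2 (adjusted p = 0.00663) and in the fit of shMETTL3-1 and shLuc alone (adjusted p = 0.00588).

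Of 15 tested MAP kinases and MAP kinase kinases, 6 were higher and 5 lower with shMETTL3-2 (median -0.09), and 3 were higher and 5 lower with shMETTL3-1 (median -0.07). MAP2K3, which activates p38, fell with both hairpins (log2 -1.14 with shMETTL3-2 and -1.36 with shMETTL3-1). MAPK13, a p38 kinase, rose with shMETTL3-2 (1.17) while 0.33 with shMETTL3-1 did not pass (adjusted p = 0.072) unless shLuc replicate 2 was left out (0.47, adjusted p = 0.0337). In the MYC and MAX network all 10 tested genes passed with shMETTL3-2, 6 higher and 4 lower (median 0.35), and with shMETTL3-1 3 were higher and 3 lower (median 0.14). The MAX partners MXD4 and MXD1, which oppose MYC, rose with both hairpins, MXD4 by 0.45 with shMETTL3-2 and 1.25 with shMETTL3-1, and MXD1 by 0.45 with shMETTL3-2 and 1.19 with shMETTL3-1. MLX, the partner of the glucose-sensing MondoA proteins, rose with shMETTL3-2 (1.12) and fell with shMETTL3-1 (-0.41).

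Known target genes were followed as well, and the activity of the factors was not measured. Counts of targets stand beside 59.6% of all genes called with shMETTL3-2 and 58.7% with shMETTL3-1. Of 17 tested AP-1 targets, 11 were higher and 3 lower with shMETTL3-2 (median 0.39), and 9 were higher and 5 lower with shMETTL3-1 (median 0.34). MMP1, interstitial collagenase and a textbook AP-1 target, scored 8681 and 6822 with shMETTL3-2, 392 and 286 with shMETTL3-1, and 68 and 61 with shLuc, a log2 rise of 6.88 with shMETTL3-2 and 2.36 with shMETTL3-1. MMP9, gelatinase B, rose by 1.69 with shMETTL3-2 and 2.14 with shMETTL3-1. PLAU, urokinase, scored 405 and 366 with shMETTL3-2, 7689 and 8080 with shMETTL3-1, and 2492 and 2360 with shLuc, so it fell by 2.65 with shMETTL3-2 and rose by 1.70 with shMETTL3-1 on the log2 scale. MMP10 was listed at 0 in 4 libraries, and its values of 146 and 0 with shMETTL3-2, 0 and 0 with shMETTL3-1, and 0 and 171 with shLuc give no usable fold.

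Among 11 tested EGR1 targets, 7 were higher and 1 lower with shMETTL3-2 (median 0.45), and 5 were higher and 5 lower with shMETTL3-1 (median 0.01). PDGFB, a growth factor chain, rose (0.56 with shMETTL3-2 and 1.37 with shMETTL3-1), and F3, tissue factor, fell (-0.49 with shMETTL3-2 and -1.33 with shMETTL3-1). Of 22 tested MYC targets, with shMETTL3-2 2 were higher and 11 lower, leaving 9 uncalled (median -0.18), and with shMETTL3-1 1 was higher and 10 lower, leaving 11 uncalled (median -0.22). LDHA, lactate dehydrogenase A, fell with shMETTL3-2 (log2 -1.19) and was -0.03 with shMETTL3-1 (adjusted p = 0.78). CCND2, cyclin D2, fell with shMETTL3-2 (-0.69) and rose with shMETTL3-1 (0.82). NCL, the nucleolar protein nucleolin, fell with shMETTL3-1 (-1.22), while its call with shMETTL3-2 (-0.32, adjusted p = 0.0486) was lost without shLuc replicate 1 (-0.14) and without any 1 of the 4 knockdown libraries (-0.39 to -0.25).

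**Figure D3:**
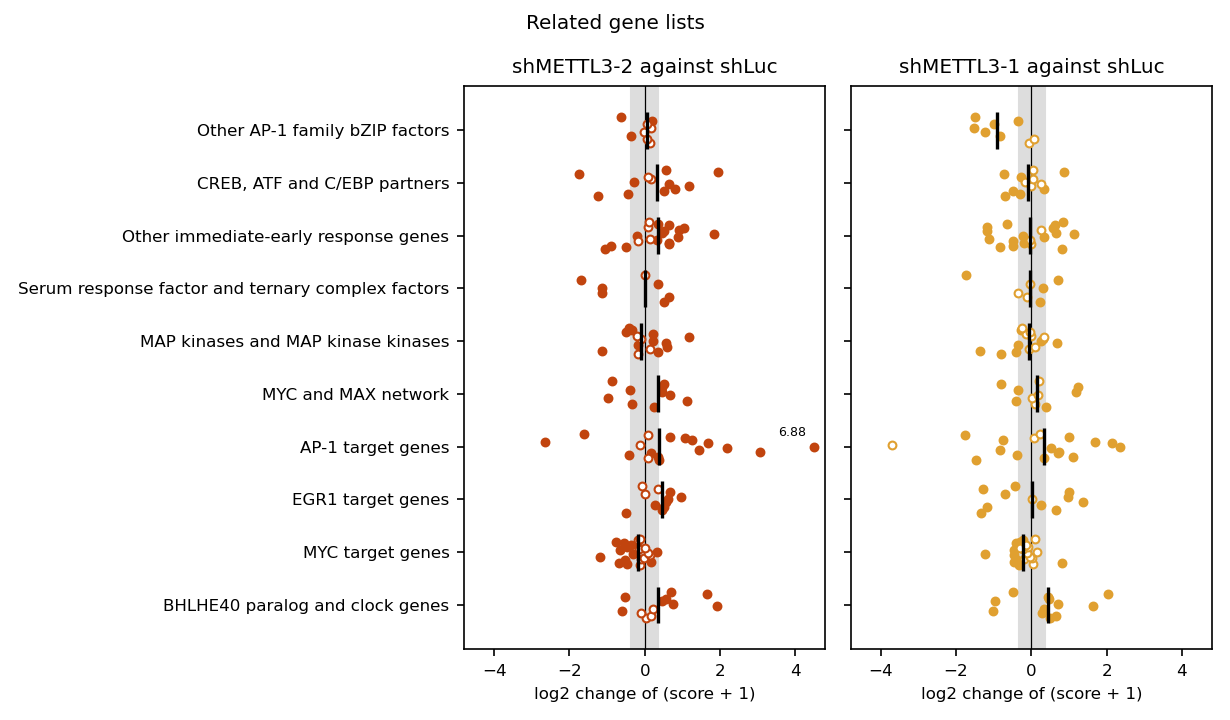
Log2 change of (score + 1) of every tested gene of 10 related lists in shMETTL3-2 against shLuc (left) and shMETTL3-1 against shLuc (right). Filled points passed an adjusted p of 0.05, black bars are list medians, the grey band spans the quartiles of all genes tested, and the MMP1 point at 6.88 is drawn at the edge; the other AP-1 zipper genes have a median of 0.06 on the left and -0.92 on the right.

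The genes whose scores followed a member most closely were found by the Euclidean distance of log2(score + 1), centred on the shLuc mean, over the 6 libraries, among genes with at least 100 in every library. FOXP4, a forkhead factor (distance 0.07), and RCE1, a CAAX protease (0.09), were nearest to FOSL1, and GPATCH2L (0.05) and TRAF4 (0.06) to FOSL2. CSNK1G2, a casein kinase (0.07), and VARS2, a mitochondrial tRNA synthetase (0.09), were nearest to JUN, TRAF1 and LINC00493 (both 0.10) to JUNB, and OSBPL5 (0.13) and ARMC5 (0.16) to JUND. The forkhead genes FOXC1 (0.13) and FOXE1 (0.19) were nearest to EGR1, and the exchange factor TIAM1 (0.17) and the carrier SLC25A23 (0.16) to ATF3. RAD51AP1, a recombination factor, and SNX13, a sorting nexin (both 0.07), were nearest to MYC. BHLHE40 had the most distant neighbours, SCAMP1 (0.26) and C14orf1 (0.29). SCAMP1, a secretory carrier membrane protein, scored 684 and 694 with shMETTL3-2, 1507 and 1512 with shMETTL3-1, and 344 and 336 with shLuc.

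GGACT, a common form of the sequence at which METTL3 methylates adenosine, was counted in the transcript that the table lists for each gene, in GENCODE 44 for GRCh37. The 9 members had a median of 0.98 matches per kilobase and 11920 tested genes one of 0.93. JUN had 5 matches in 3257 bases, BHLHE40 4 in 3152, FOSL1 and MYC 2 each in 1427 and 2042, and ATF3 and JUNB 1 each in 680 and 1830. EGR1 had 0 in 3137 bases. The short transcripts listed for FOSL2 and JUND also had 0. Methylation was not measured in these libraries, so these are counts of a sequence and not of modified sites.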

How the data were processed

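RNA-seq of 6 LX2 libraries (3 groups of 2) was analysed. Per the labels' protocols, reads were mapped to hg19, and the submitters' processing notes name DESeq2 without role or version. The sources used here name no aligner, counter or strandedness. As deposited by the authors, the table holds 1 score per gene and library: column totals run from 16535130 to 16536605 and sorted columns are nearly identical, so no count model was run. From these scores log2(score + 1) was computed for 12413 genes with a mean of at least 50 (241 left out) and fitted by limma (version 3.58.1, R version 4.3.3) to group means with a variance trend, robust moderation and 3 residual degrees of freedom. P-values are two-sided, adjusted by Benjamini-Hochberg over all genes tested. The procedure was also run on simulated scores in which few genes changed, in 1 group only. In the deposited scores most genes were called and sorted columns are nearly identical, and the simulation did not cover these features. Members, lists and tests were chosen with earlier results of these data known. Named genes are the members, METTL3, up to 3 per list with the largest summed absolute change among those called with at least 10 in every library, and the 2 nearest patterns per member; 2 genes that this rule names are not reported here, and HOOK2, MMP10, BHLHE41 and the single markers were added after its values were seen. Alternatives were pseudocounts of 10 and 50, no filter or a mean of 200, plain moderation, 2-group fits, a replicate block and leaving out each library. Promoters are from RefSeq (GRCh38.p14; 8 of 10 genes matched).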

Additional observations from a re-analysis of the deposited data

Results flagged for a closer look

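For 8 of the 9 members the effect of the 2 hairpins differed by the test of the difference itself (limma, shMETTL3-2 against shMETTL3-1), as it did for 63.0% of all genes tested. The shLuc means do not enter this difference, but the shLuc libraries enter its error. The count was between 6 and 9 over the alternatives, and FOSL1, FOSL2 and EGR1 lost their call when certain single knockdown libraries were left out. On the log2 scale the difference was 0.218 for FOSL1 (adjusted p = 0.00793), 0.166 for FOSL2 (adjusted p = 0.0169), 0.652 for JUNB (adjusted p = 0.000138) and 0.43 for EGR1 (adjusted p = 0.012), all higher with shMETTL3-2 in both of its libraries. It was -0.512 for JUN (adjusted p = 0.000358), -0.645 for ATF3 (adjusted p = 0.00333), -0.527 for MYC (adjusted p = 0.000102) and -1.19 for BHLHE40 (adjusted p = 1.62e-05), all lower with shMETTL3-2 in both of its libraries. For JUN and MYC the 2 hairpins also lay on opposite sides of shLuc. METTL3 scored 148 and 132 with shMETTL3-2 and 274 and 256 with shMETTL3-1, and the degree of knockdown and the hairpin cannot be told apart in this design. The METTL3 scores belong to a row whose listed transcript is annotated as a nonsense-mediated decay transcript. The rule for a library far from its group needs at least 4 libraries and was not applied.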

How the results depend on the processing

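Over 13 alternatives the members called ranged between 8 and 9 with shMETTL3-2 against shLuc, 6 and 8 with shMETTL3-1 against shLuc and 6 and 9 for shMETTL3-2 against shMETTL3-1, and the counts over all genes between 6251 and 7769, 5739 and 7698, and 6369 and 8196. Of 348 values for members under these alternatives, 330 kept their direction and side of the threshold, 12 no longer passed, 6 newly passed and 0 changed sign. Leaving out 1 library moved 3 small values of other named genes across 0: SRF with shMETTL3-2 (-0.0158 to 0.0219), LDHA with shMETTL3-1 (-0.1124 to 0.0617) and TRAF4 with shMETTL3-1 (-0.0138 to 0.066), none of which passed in the reported fit. A fit that leaves out a library assumes that the lone library of that group varies like the others. The replicate block gave 9, 8 and 9 members and 7769, 7698 and 8196 genes in the same order of comparisons; it adds JUND for shMETTL3-1 against shLuc and for the difference between hairpins and ended no member's call. The labels do not say that equal numbers share a culture, and deviations of same-numbered libraries correlated at 0.443 between shMETTL3-2 and shLuc, 0.111 between shMETTL3-1 and shLuc and 0.0883 between the hairpins. Depth is unknown, and a rank-like score hides any shift common to all genes.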

Other observations

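Genes of the circadian clock, on which BHLHE40 acts as a repressor, were listed together with its paralog, and the list as a whole was not tested. Of 12 genes tested, with shMETTL3-2 6 were higher and 2 lower, leaving 4 uncalled (median log2 0.35), and 9 were higher and 3 lower with shMETTL3-1 (median 0.45), where 59.6% of all genes were called with shMETTL3-2 and 58.7% with shMETTL3-1. PER3, a period gene, scored 232 and 252 with shMETTL3-2, 319 and 310 with shMETTL3-1, and 70 and 83 with shLuc, a rise of 1.65 with shMETTL3-2 and 2.03 with shMETTL3-1. DBP, a clock output factor, scored 132 and 104 with shMETTL3-2, 96 in both shMETTL3-1 libraries, and 45 and 20 with shLuc, a rise of 1.93 with shMETTL3-2 and 1.64 with shMETTL3-1. CRY1, a cryptochrome, fell by 0.62 with shMETTL3-2 and by 1.02 with shMETTL3-1 on the log2 scale. BHLHE41, the paralog of BHLHE40, scored 296 and 280 with shMETTL3-2, 388 and 421 with shMETTL3-1, and 266 and 243 with shLuc.

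Zipper genes of the CREB, ATF and C/EBP families, which can pair with AP-1 proteins or share their sites, are given as counts beside those same shares of all genes. Of 12 tested, 6 were higher and 4 lower with shMETTL3-2 (median 0.34), and 2 were higher and 5 lower with shMETTL3-1 (median -0.10). CREM rose with both hairpins (log2 1.94 with shMETTL3-2 and 0.88 with shMETTL3-1). ATF1 (-1.25 with shMETTL3-2 and -0.71 with shMETTL3-1) and CREB5 (-1.76 with shMETTL3-2 and -0.73 with shMETTL3-1) fell. The call of CREB5 with shMETTL3-1 was lost without shLuc replicate 2 (log2 -0.59, adjusted p = 0.108) or shMETTL3-1 replicate 1 (-0.45, adjusted p = 0.108).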
